A study of Rattus norvegicus with 6 samples.

Results

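Osteoblast differentiation genes were examined in rat bone marrow mesenchymal stem cells (BMSCs), adherent cells of the marrow with the capacity to form bone, cartilage or fat, after silencing of the calcium-binding protein S100A16 with an siRNA. The set was given as 5 rat Ensembl identifiers, for Runx2, Alpl, Bglap, Spp1 and Bmp2. Of these, 3 were rows of the deposited table of 30560 genes: Runx2 (ENSRNOG00000020193), Bglap (ENSRNOG00000019607) and Spp1 (ENSRNOG00000043451). The identifiers given for Alpl and Bmp2 matched no row, and these genes were not analysed here. The siS100A16 group had 3 samples transfected with siRNA against S100A16, and the siNC group had 3 samples transfected with a control siRNA. All 6 were primary rat BMSCs used at passages 3 to 5 and kept under osteogenic differentiation, so no undifferentiated cells were available as a baseline. The labels do not give the dose, sequence or duration of the siRNAs, or the number of rats. The study asked how S100A16 acts on bone cell differentiation.

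Osteoblast formation runs through a short chain of well-known genes. Runx2 encodes the Runt-domain transcription factor without which osteoblasts do not form. Bmp2 encodes a bone morphogenetic protein, a secreted ligand that promotes Runx2 expression through SMAD proteins. Alpl encodes the tissue-nonspecific alkaline phosphatase of early osteoblasts, Spp1 encodes osteopontin, a secreted acidic matrix phosphoprotein, and Bglap encodes osteocalcin, a matrix protein of late, mineralising osteoblasts. Spp1 is also made by macrophages and several other cell types, whereas Bglap is largely restricted to mature osteoblasts. Bglap and Spp1 are both described targets of RUNX proteins.

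Because these 3 genes stand for a transcription factor and its described targets, the bases before 4 transcription starts listed for them from RefSeq are shown, with the RUNX core motif TGTGGT, or its reverse complement ACCACA, and the variant TGCGGT, or ACCGCA, in capitals. Each sequence is the 250 bases before a start, 5′ to 3′ on the strand of the gene, from RefSeq on build GRCr8. The Bglap window lies at chr2:176137319-176137568 (minus strand), the Spp1 window at chr14:5619805-5620054 (minus strand), the first Runx2 window at chr9:23664808-23665057 (plus strand) and the second at chr9:23742990-23743239 (plus strand). The Spp1 window and both Runx2 windows lie inside the RefSeq gene span, so the outermost start of these genes is not among those shown.
Runx2, first window: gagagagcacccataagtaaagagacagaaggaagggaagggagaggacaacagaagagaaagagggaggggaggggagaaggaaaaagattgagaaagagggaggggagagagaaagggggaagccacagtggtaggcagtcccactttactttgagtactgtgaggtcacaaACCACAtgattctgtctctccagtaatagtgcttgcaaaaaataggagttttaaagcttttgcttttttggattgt
Runx2, second window: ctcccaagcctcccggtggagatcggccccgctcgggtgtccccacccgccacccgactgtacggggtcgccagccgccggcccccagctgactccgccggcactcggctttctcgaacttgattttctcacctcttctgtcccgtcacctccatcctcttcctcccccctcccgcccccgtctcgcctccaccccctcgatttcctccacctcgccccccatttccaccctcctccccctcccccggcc
Bglap: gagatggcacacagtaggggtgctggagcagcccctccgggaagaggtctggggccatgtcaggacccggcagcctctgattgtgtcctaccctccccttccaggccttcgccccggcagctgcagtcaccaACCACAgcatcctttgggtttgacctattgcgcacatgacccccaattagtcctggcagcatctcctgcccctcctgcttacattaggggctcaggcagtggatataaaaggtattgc
Spp1: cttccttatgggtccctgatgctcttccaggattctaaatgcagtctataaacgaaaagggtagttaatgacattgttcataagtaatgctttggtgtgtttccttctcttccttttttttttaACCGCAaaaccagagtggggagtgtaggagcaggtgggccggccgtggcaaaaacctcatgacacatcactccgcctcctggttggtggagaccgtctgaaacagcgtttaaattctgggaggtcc
The core motif was found once in the Bglap window, 118 to 113 bases before the start, and once in the first Runx2 window, 76 to 71 bases before it, in both cases as ACCACA. The Spp1 window held the variant ACCGCA once, 126 to 121 bases before the start, and no core motif. Neither form was found in the second Runx2 window. TATAAA was found in the Bglap window at 15 to 10 bases before the start and in the Spp1 window at 204 to 199 bases before it. Such matches are common: with both strands searched, the core motif was present in 14.5% of 33469 RefSeq windows of this length, the variant in 5.02% and TATAAA in 12.9%. They describe the letters in these windows and say nothing on binding in these cells.

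The table gives FPKM, which scales the reads of a gene to its length and to the depth of the library. Since FPKM is made from whole reads, the totals could be worked out. They were 6937001, 6384262 and 5387539 reads in siS100A16 replicates 1 to 3, and 7560820, 7135826 and 8059327 in siNC replicates 1 to 3. The gene lengths that came out with them were 4029 nt for Runx2, 1514 nt for Spp1 and 227 nt, or a multiple of it up to 4 times, for Bglap. Each lies within the genomic span of the RefSeq gene of that symbol: 328971 nt for Runx2 on chromosome 9, 7127 nt for Spp1 on chromosome 14, and 978 nt for Bglap on chromosome 2 (GRCr8). No length went against its identifier, but the spans are wide and this is a weak check. The reference used here pairs no symbol with an Ensembl identifier, so S100a16 itself, the other genes of the osteoblast pathway and the markers of other cell types could not be looked up. Silencing and cell composition were therefore not assessed.

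The 3 genes differed widely in level, and their measured values had the same order in every sample. Spp1 stood far above Runx2, and Runx2 above Bglap. Over all 6 samples the mean was 2768 FPKM for Spp1, the gene with the 19th highest mean, 2.87 FPKM for Runx2 and 0.321 FPKM for Bglap. Spp1 was thus among the most abundant transcripts of these cells, above 99.8% of the 12336 genes with a mean of at least 1 FPKM. Runx2 was above 22.9% of the same genes. Bglap, the defining gene of mature osteoblasts among the 3, had a value of 0 in 4 of 6 samples. In such bulk samples fewer cells of a type and less RNA per cell cannot be told apart.

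**Figure D1:**
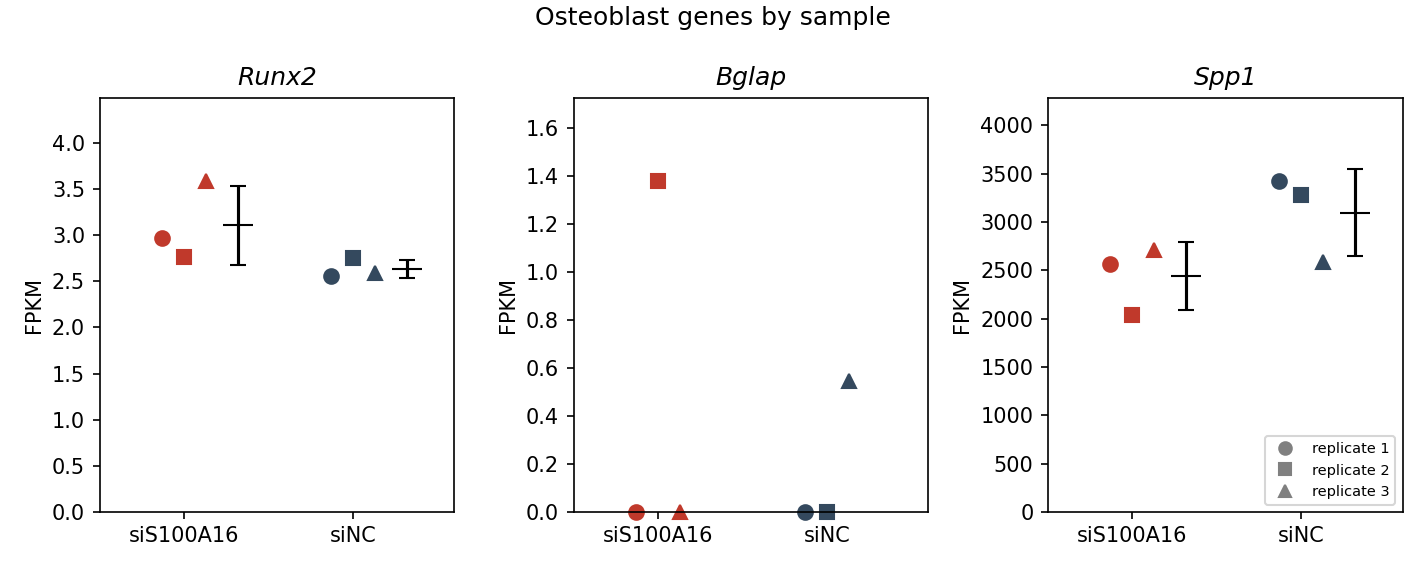
FPKM of Runx2, Bglap and Spp1 in each of the 3 siS100A16 and 3 siNC samples, with symbols for the replicate number and, for Runx2 and Spp1, the mean and SD as a bar at the side. Each panel has its own linear axis from 0. Runx2 lies between 2.56 and 3.59 FPKM, Bglap is at 0 in 2 of 3 samples of each group, and Spp1 lies between 2039 and 3426 FPKM.

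Runx2, the transcription factor at the head of the programme, was expressed at a low level in both groups. It had 2.97, 2.76 and 3.59 FPKM in siS100A16 replicates 1 to 3, and 2.56, 2.75 and 2.59 FPKM in siNC replicates 1 to 3. All 3 siS100A16 values were above all 3 siNC values, but the nearest pair, 2.76 against 2.75 FPKM, was almost level, and 29.3% of all tested genes separated in this direction. The mean was 3.11 ± 0.433 FPKM in siS100A16 and 2.63 ± 0.101 FPKM in siNC (SD, n = 3 each). The difference did not pass the test. The log2 fold change on the log2(FPKM + 1) scale was 0.17, with a 95% interval from -0.37 to 0.72 (SE 0.24, limma adjusted p = 0.652). As a fold of FPKM + 1, the interval runs from 0.77 to 1.65, which leaves room for a fall as well as for a rise. The added 1 narrows the fold of a gene this low. With 0.1 added instead, the log2 fold change was 0.22, with a 95% interval from -0.48 to 0.93.

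The reads behind Runx2 limit what could be seen. It had 83, 71 and 78 reads in siS100A16 and 78, 79 and 84 in siNC, so that its read number hardly differed between samples while the totals did. The exact Poisson 95% interval of a single sample was as wide as 55.5 to 89.6 reads for the 71 reads of siS100A16 replicate 2. Summed over each group, Runx2 had 232 of 18708802 reads in siS100A16 and 241 of 22755973 reads in siNC, a ratio of the shares of 1.17 with an exact 95% interval of 0.97 to 1.41. This interval covers counting error only, and it includes 1.

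Spp1, the osteopontin gene, was lower on average after S100A16 siRNA, but its groups overlapped. It had 2566, 2039 and 2714 FPKM in siS100A16 replicates 1 to 3, and 3426, 3278 and 2583 FPKM in siNC replicates 1 to 3. Replicate 3 of siNC lay within the range of the siS100A16 samples, and the other siNC samples lay above all of them. The mean was 2440 ± 355 FPKM in siS100A16 and 3096 ± 450 FPKM in siNC (SD, n = 3 each). The log2 fold change was -0.34, with a 95% interval from -0.71 to 0.02 (SE 0.16, limma adjusted p = 0.165), a fold of 0.79 with an interval of 0.61 to 1.02. It therefore did not pass the test. Without siS100A16 replicate 2, the lowest sample, the log2 fold change was -0.22 (limma adjusted p = 0.308). Over all tested genes the siS100A16 libraries were more variable, with limma sample weights of 0.31 to 0.60 against 1.27 to 5.86 in siNC. For Spp1 itself the SD was 14.5% of the mean in both groups. With these weights in the fit the log2 fold change of Spp1 was -0.44 (limma adjusted p = 0.116).

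Spp1 transcripts took up 0.389%, 0.309% and 0.411% of all reads in siS100A16 replicates 1 to 3, and 0.519%, 0.496% and 0.391% in siNC replicates 1 to 3. The exact Clopper-Pearson 95% intervals of these shares were narrow, from 0.304% to 0.313% for the lowest and from 0.514% to 0.524% for the highest. Between 19710 and 39219 reads stood behind each value, so the spread between samples of a group was far above the counting error. By FPKM, Spp1 was the 21st, 25th and 21st most abundant gene in siS100A16 replicates 1 to 3 and the 17th, 17th and 19th in siNC replicates 1 to 3.

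Bglap, the osteocalcin gene, was at the edge of detection in both groups. It had 0, 1.38 and 0 FPKM in siS100A16 replicates 1 to 3, and 0, 0 and 0.547 FPKM in siNC replicates 1 to 3. These values stand for 2 reads in siS100A16 replicate 2 and 1 read in siNC replicate 3, or the same multiple of both, up to 4 times, if the gene length is a multiple of 227 nt. A count of 0 allows up to 3 reads. With a length of 227 nt that is up to 1.91 and 2.45 FPKM in siS100A16 replicates 1 and 3, and up to 1.75 and 1.85 FPKM in siNC replicates 1 and 2, and proportionally less for a longer gene. With that length both values above 0 lie under these limits. No difference in Bglap was detectable at this depth. Its mean was under the minimum of 1 FPKM, and it was left out of the main test. In all 6 samples the Runx2 level was above the level that 3 Bglap reads stand for, which was 2.45 FPKM at most.

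Both tested genes were read against the rest of the transcriptome. Of the 12336 tested genes 20.7% were called at a Benjamini-Hochberg adjusted p under 0.05, with 16.4% called higher and 4.27% called lower in siS100A16. Of the 3 osteoblast genes in the table, 2 passed the filter on level and 0 were called. The unadjusted limma p was 0.487 for Runx2 and 0.0627 for Spp1. By limma voom, run on reads instead of FPKM, 1 of these 2 genes was called, Spp1. That fit called 15.6% of all tested genes, and 8.67% lower in siS100A16. Genes of a level like that of Runx2, from 2 to 5 FPKM, were seldom called: 83 of 2762 were higher and 113 lower, and their median SE was 0.32. Genes above 1000 FPKM, the class of Spp1, were called more often, with 17 of 53 higher and 16 lower and a median SE of 0.15.

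**Figure D2:**
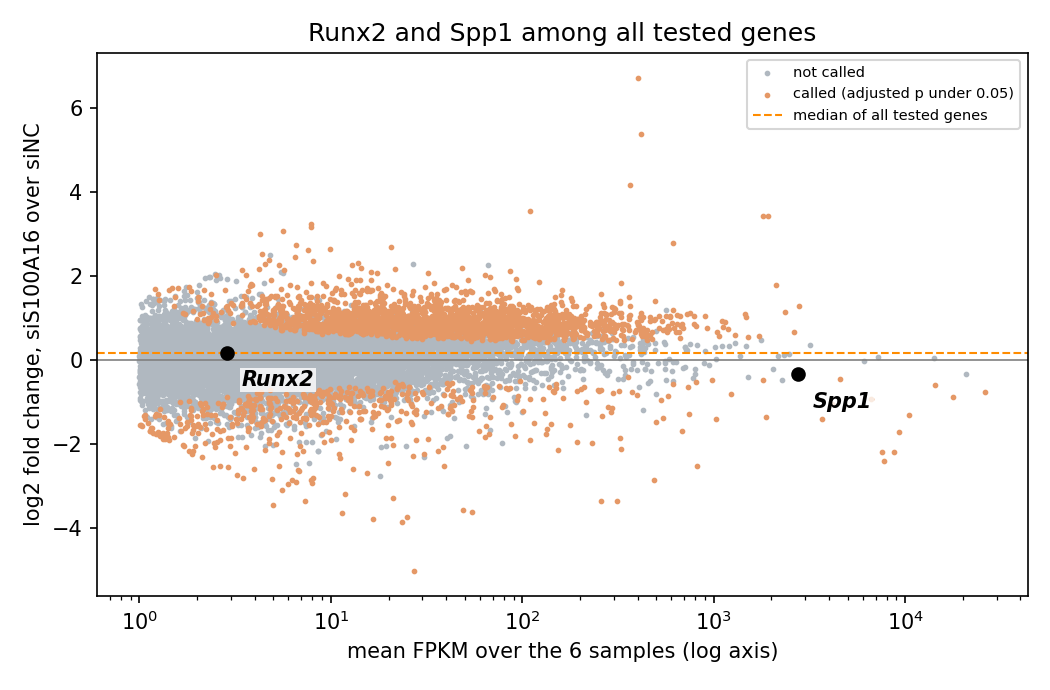
Log2 fold change (siS100A16 over siNC, log2(FPKM + 1) scale) against the mean FPKM over the 6 samples on a log axis, for all 12336 tested genes, with called genes in orange. Runx2, at 2.87 FPKM, lies on the dashed line of the median of all tested genes (0.17), and Spp1, at 2768 FPKM, lies below it at -0.34. Neither gene is called.

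The deposited values are scaled to library totals alone, and the tested genes as a whole stood higher in siS100A16, with a median log2 fold change of 0.17. This is also the value of Runx2: 6162 of 12336 genes had a lower log2 fold change than Runx2. Relative to that median Spp1 stood at -0.52. Scaling by the median of ratios moved the median of all tested genes to -0.02. Under this scaling the log2 fold change of Runx2 was -0.00043 (limma adjusted p = 0.999), and with limma voom it was -0.04 (adjusted p = 0.937). These scalings shift all genes together and Runx2 stayed near their median, so no direction can be given for it. That of Spp1 was -0.58, with a 95% interval from -0.99 to -0.17 (limma adjusted p = 0.0665). Spp1 was called lower in 2 further analyses: with limma voom and TMM scaling on the worked-out reads (log2 fold change -0.61, adjusted p = 0.0345) and after each library's trend with gene length was removed (-0.72, adjusted p = 0.034), where 5.31% of all tested genes were called lower. Spp1 was lower in siS100A16 under all 17 alternatives, but several of these cannot change a fold change and add no support for the direction. Whether the difference passed the threshold depended on the processing.

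**Figure D3:**
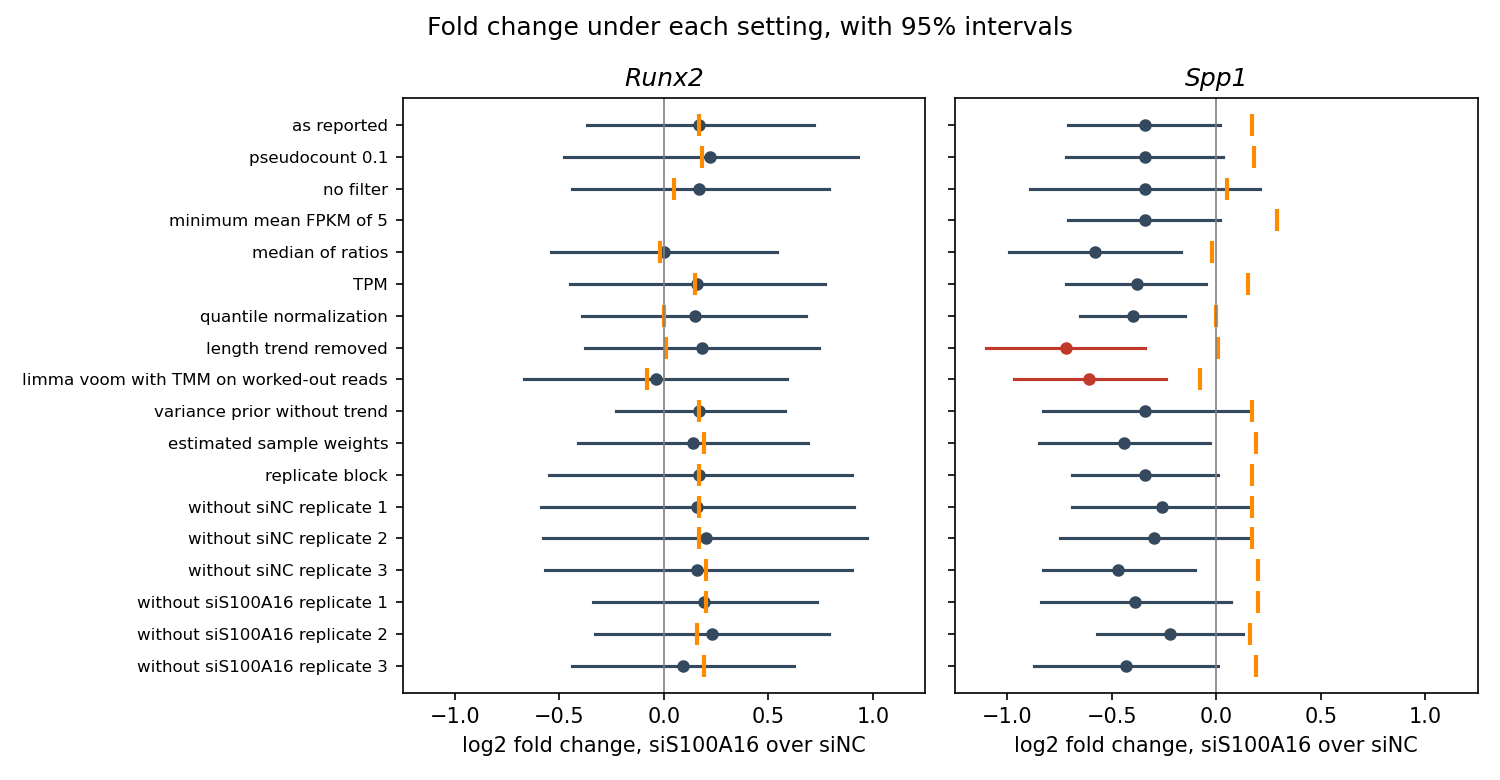
Log2 fold change (siS100A16 over siNC) of Runx2 and Spp1 as reported and under each alternative, with 95% intervals as lines. Red marks an adjusted p under 0.05, and the orange tick is the median over all tested genes in that analysis. All Runx2 intervals include 0. All Spp1 values are below 0 and below the orange tick, from -0.22 to -0.72.

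The ratio of Spp1 to Runx2 within a library does not depend on any factor that scales a whole library. It does depend on a trend with gene length, as the lengths were 1514 nt for Spp1 and 4029 nt for Runx2. Removing that trend moved Spp1 from -0.34 to -0.72 and Runx2 from 0.17 to 0.18. In FPKM, and so per gene length, Spp1 was 864, 739 and 755 times as high as Runx2 in siS100A16 replicates 1 to 3, and 1338, 1193 and 999 times as high in siNC replicates 1 to 3. The groups did not overlap in this ratio, but it was not compared with the ratios of other gene pairs. The nearest values, 864 in siS100A16 replicate 1 and 999 in siNC replicate 3, rest on 83 and 84 Runx2 reads. The exact Poisson intervals of these reads were 66.1 to 103 and 67 to 104. Counting error in Runx2 alone could therefore open or close the gap between the groups. On the log2 scale the ratio averaged 9.61 ± 0.12 in siS100A16 and 10.19 ± 0.21 in siNC (SD, n = 3 each). The difference was -0.57. The ratio was taken up after the values of both genes had been seen and is given as a description. An exact two-sided permutation test gave p = 0.1. That is the smallest p it can give with 3 against 3 samples, so it could not pass a threshold of 0.05 and decides nothing. A ratio does not tell which gene of the pair differed.

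No gene could be named as close to Runx2 or Spp1 in pattern, since the identifiers are not paired with symbols. Among 12335 other tested genes, 77 had a Pearson correlation with Runx2 above 0.95 over the 6 samples on the log2(FPKM + 1) scale, and 97 had one below -0.95. With Spp1, 2 genes had a correlation above 0.95 and 22 had one below -0.95. The 3 closest reached 0.9943, 0.9928 and 0.9915 for Runx2, and 0.9794, 0.9584 and 0.9416 for Spp1. These are descriptions over 6 samples that share the 2 groups and the library totals. The counts were not compared with those expected for unrelated genes, and with 6 samples such correlations also arise by chance.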

How the data were processed

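RNA sequencing of 3 siS100A16 and 3 siNC samples was deposited by the authors as 1 table of FPKM values per gene. HISAT2 2.1.0 and DESeq2 1.14.1 are named, per the submitters' processing notes, with no role given. The notes name a mouse build, whereas all 30560 identifiers carry the rat Ensembl prefix; the read counter, annotation and filters were not given in the sources used here. Control columns were taken as siNC, and the remaining columns as siS100A16, since the labels hold no further group. Replicate numbers come from the titles. The labels do not say whether replicates are separate cultures or animals. The p-values therefore measure only the spread between samples, and that spread may be technical.

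Whole reads were worked out for all 22692 genes above 0 (relative tolerance 3e-12), and 98.4% of the genes averaging 1 FPKM or more had a whole length (tolerance 0.002 nt). The smallest whole solution is given, so a factor shared by all reads and the length of a gene is lost. Limits of 3 reads and 95% intervals of reads or shares cover counting error only: PCR copies of a molecule are counted as separate reads.

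Differences were tested two-sided on log2(FPKM + 1) with limma 3.58.1 (R 4.3.3) and a mean-dependent variance prior, on all 12336 genes with a mean of at least 1 FPKM, with Benjamini-Hochberg adjustment over all of them. This scale understates the change of low genes. Intervals of reads and shares were computed with SciPy 1.17.1. Only the working out of reads and the main limma fit were run on simulated data, without a shift of all genes or a length trend. The alternatives named below were not simulated. The genes and lists were chosen with earlier results of these data known. The rule for named genes took the 5 listed genes, the 3 genes most correlated with each, and lists of osteoblast pathway and cell type genes by symbol; the last 2 could not be named or used without symbols. Alternatives were another pseudocount, other filters, 4 rescalings, limma voom, other variance and weight settings, the replicate number as a block, and each sample left out in turn.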

Additional observations from a re-analysis of the deposited data

How the results depend on the processing

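Spp1 kept its direction under all 17 alternatives. The other filters, the variance prior without trend and the replicate block cannot change its fold change. The smaller pseudocount hardly can at its level, so these add no support for the direction. Spp1 passed the threshold under 2 alternatives: -0.72 with the length trend removed and -0.61 with limma voom and TMM scaling on worked-out reads, against -0.34 as reported. Runx2 passed it under none of the 16 alternatives that gave a value, since a minimum mean of 5 FPKM leaves it out. Its sign changed to -0.00043 with median of ratios and -0.04 with limma voom, where the median of all tested genes moved alike, to -0.02 and -0.08, and these values give no direction. Leaving out single samples gave -0.47 to -0.22 for Spp1, with adjusted p from 0.0994 to 0.4, and 0.09 to 0.23 for Runx2. A replicate block cannot change the fold changes in this balanced design, which were 0.17 for Runx2 and -0.34 for Spp1. With the block their limma adjusted p were 0.743 and 0.157, and 2246 genes were called. Samples with the same number had correlations of their deviations of -0.03, 0.05 and 0.04, against -0.08 to 0.03 for samples with different numbers. With 3 samples a group these values cannot settle whether the numbers pair the samples.

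Over all genes, the 2556 calls became 1511 with quantile normalization and 1407 with the length trend removed. Median of ratios gave 928 higher and 820 lower, against 2029 higher and 527 lower as reported. Quantile normalization gave 665 and 846, length correction 752 and 655, and limma voom 860 and 1069. Without single samples, 570 to 3209 genes were called, 477 to 2224 higher and 93 to 985 lower, with the fewest calls without siNC replicate 2 and the most without siS100A16 replicate 2. The cause of these changes was not tested. The alternatives planned for Alpl and Bmp2, whose identifiers matched no row, gave no value. Bglap entered only the fit without a filter on level (limma adjusted p = 0.761), and no fold is given for it, as both groups were at the limit of detection. That p rests on so few reads that it decides nothing. Depth limits Runx2 (71 to 84 reads a sample) and Bglap, not Spp1.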
